A study of Mus musculus with 24 samples.

Results

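Brainstem astrocytes from mice labelled as lacking nuclear factor I A (NFIA) were compared with those of control mice, over all genes, in 6 of the 24 bulk RNA-seq libraries of a study of 4 brain regions. The 3 libraries labelled knockout came from C57BL6 mice aged 20 weeks that carried NFIAfl/fl, Aldh1l1-CreER and Aldh1l1-GFP. The 3 control libraries came from C57BL6 mice of the same age that carried NFIAfl/fl and Aldh1l1-GFP. Both groups thus had the floxed Nfia allele and the reporter, and the recombinase was present in the labelled knockouts alone. The Aldh1l1 promoter drives the tamoxifen-inducible recombinase as well as the GFP by which cells were sorted, so a cell type with activity of that promoter can be sorted and recombined, whatever its identity. Tamoxifen schedule, sex and animal of origin are not given in the sources used here, so p-values measure the spread between these libraries, which may in part be technical.

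Nuclear factor I proteins are transcription factors encoded by a small gene family, Nfia, Nfib, Nfic and Nfix, that bind DNA as dimers. NFIA is known for its part in the onset of gliogenesis in the developing spinal cord and for binding at the promoter of Gfap, the gene of the glial fibrillary acidic protein. Astrocytes of the brainstem arise from hindbrain and midbrain progenitors and keep part of the patterning code of those progenitors, among it Hox genes.

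A value below is a deposited normalised read count, meaning the reads of a gene divided by 1 factor per library. Whole reads could be recovered from it, and they numbered 1090777 to 4974931 in the libraries labelled knockout and 2830746 to 5552215 in controls. Labelled knockout 3 was the shallow one, and 1 read was worth 5.75 normalised reads in it, against 1.07 to 2.16 in the other 5. A count of 0 there allows up to 17.2 normalised reads, counting error only. The ribosomal RNA precursor Rn45s took 13.5% to 21.1% of reads in libraries labelled knockout and 17.96% to 25.6% in controls. Exact two-sided permutation tests gave p = 0.8 for reads and p = 0.3 for the Rn45s share, where 0.1 is the smallest p that 3 libraries against 3 allow.

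The libraries held the markers of astrocytes and of the hindbrain. Aqp4, the water channel of astrocyte endfeet, had 28604, 22299.9 and 27028 in libraries labelled knockout and 9443, 21076 and 12274 in controls. Aldh1l1, whose promoter was used for sorting, had 1165, 1009.5 and 919 in libraries labelled knockout and 635, 1275 and 673 in controls. Hoxa2, a gene of hindbrain segments, was read in all 6 libraries. A list of hindbrain patterning genes summed to 948 to 1796 normalised reads per library. A list of forebrain patterning genes was read as well, with sums of 856 to 3357.

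Reads of the targeted gene were more numerous in the libraries labelled knockout. Nfia (ENSMUSG00000028565.18, chromosome 4, 97772734 to 98118874 on the plus strand of mm10, GENCODE vM21) had 9905, 10325 and 8768 normalised reads in the libraries labelled knockout, against 3313, 6004 and 4563 in controls. Every library labelled knockout was above every control, by 2.09-fold between the means. The fitted log2 fold change was 1.10 ± 0.27 (SE, n = 3 each), with an unadjusted p of 0.00131 and an adjusted p of 0.713 in limma. These counts cover the gene as a whole, so they do not show whether a floxed exon was lost, and the groups are called by their labels throughout.

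The other 3 family members were also higher on average in the libraries labelled knockout, and none passed the test. Nfib had 3024, 2816 and 2741 in libraries labelled knockout and 1622, 2562 and 2068 in controls, with no overlap. Nfic had 1323, 1238 and 1207 in libraries labelled knockout and 1154, 925 and 1098 in controls, again with no overlap and with the smaller log2 fold change, 0.25 ± 0.21. Nfix had 3803, 3551 and 2614 in libraries labelled knockout and 1815, 2615 and 1902 in controls, where labelled knockout 3 and control 2 were nearly level. Summed over the family, the libraries labelled knockout had 18056, 17931 and 15329.7, and the controls 7904, 12106 and 9630.2.

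No gene passed an adjusted p of 0.05 in the comparison of the 6 libraries (0 of 11330 genes, 0%). The test was limma on log2(value + 5), two-sided with Benjamini-Hochberg adjustment over all genes with at least 20 normalised reads in at least 3 libraries. At an unadjusted p under 0.05 it gave 733 genes (6.47%), 392 higher (3.46%) and 341 lower (3.01%) in the libraries labelled knockout. edgeR's quasi-likelihood test on the recovered reads called 0 genes as well, with 694 at an unadjusted p under 0.05, and DESeq2 called 3 (0.0265%), Fzd1, Notch3 and Dkk3, all higher. That unadjusted count of limma was 334 without control 1, 414 without control 3 and 1463 without control 2, and the adjusted count was 0 without each of the 6 libraries in turn. In 637 genes (5.62%) the 3 libraries labelled knockout all lay above the 3 controls, and in 619 (5.46%) they all lay below. With 2 libraries in a group this is easier to meet. The first share was then 11.1%, 11.5% and 10.1% without labelled knockout 1, 2 and 3, and 8.67%, 15.6% and 9.13% without control 1, 2 and 3. The second share was 10.2%, 12.4% and 10.2% without labelled knockout 1, 2 and 3, and 8.38%, 14% and 8.91% without control 1, 2 and 3.

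**Figure D1:**
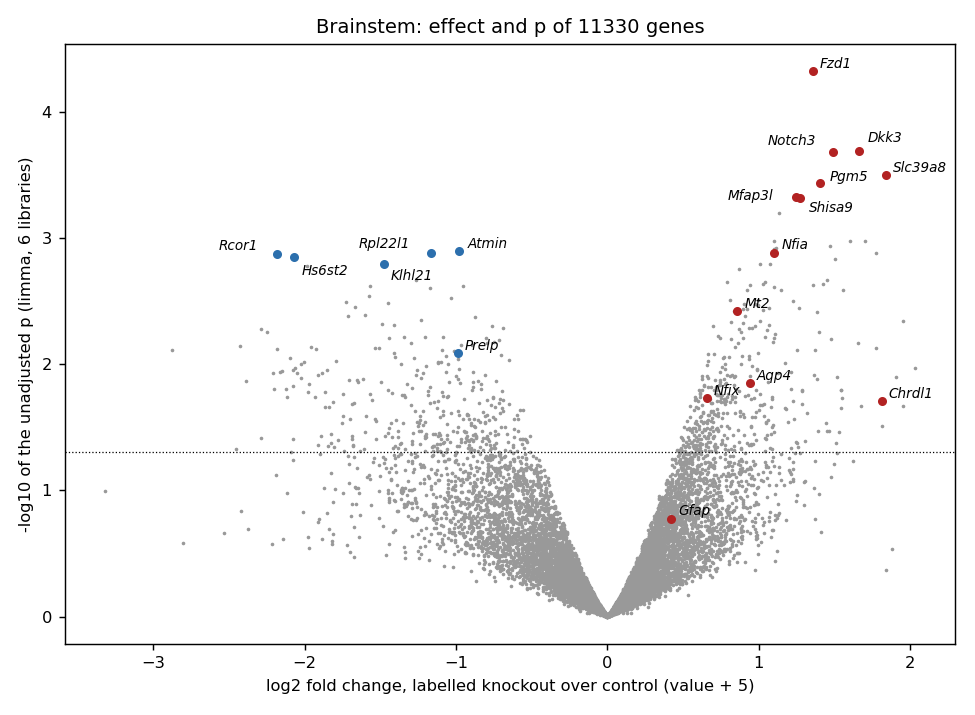
Log2 fold change of labelled knockout over control in brainstem (x axis) against the −log10 of the unadjusted limma p (y axis) for the 11330 genes tested, 3 libraries a group. Coloured points are named genes and the dotted line marks an unadjusted limma p of 0.05. Fzd1 stands highest, and no gene passes after adjustment.

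Replicates of brainstem stood further apart than those of the other regions. The median within-group standard deviation of a gene was 0.42 on the log2 scale in brainstem, against 0.28 in olfactory bulb, 0.31 in hippocampus and 0.27 in cortex. Thinned to 1090777 reads per library, the depth of labelled knockout 3, the same medians were 0.48 in brainstem, against 0.36, 0.39 and 0.36 in those 3 regions. Without labelled knockout 3 the brainstem median was 0.40, and without each of the other libraries it was 0.39 to 0.43. Labelled knockout 3 and control 1 lay at opposite ends of the first principal component, which held 35.9% of the variance. Their correlation over genes, 0.837, was the lowest of the 15 pairs, and the highest, 0.944, joined labelled knockout 1 with control 2, libraries of different groups.

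Fits that take their estimate of spread from all 24 libraries called genes in brainstem, and the count depended on how the larger spread of brainstem was treated. With 1 spread for all regions limma called 98 of 12673 genes (0.773%), 69 higher and 29 lower, and without labelled knockout 3 it called 22, 20 higher and 2 lower. With 1 estimated weight per region, 0.591 for brainstem and 1.04 to 1.29 for the others, it called 8 (0.0631%), all higher. With 1 estimated weight per library it called 120 (0.947%), 100 higher and 20 lower. The 8 called with weights by region were Chrdl1, Dkk3, Tspan18, Shisa9, 9330159F19Rik, Fam84a, Nfia and Mfap3l. In the 6 brainstem libraries alone, 1 weight per library called 5 of 11330 genes (0.0441%), Fzd1, Dkk3, Mfap3l, Notch3 and Shisa9, again all higher.

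Among the higher genes, the 5 with the smallest p were Fzd1, Dkk3, Notch3, Slc39a8 and Pgm5, and in each the groups did not overlap. None passed the 6-library test. Fzd1 and Notch3 are receptors of Wnt and Notch signalling, pathways by which neighbouring cells act on each other.

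Fzd1 (chromosome 5, 4753839 to 4758035, minus strand), a Frizzled receptor for Wnt ligands, had 558, 637 and 552 in libraries labelled knockout, against 222, 266 and 189.8 in controls. The gap between the groups was wider than the range within either, and the log2 fold change was 1.36 ± 0.23 (adjusted p = 0.537, limma). Dkk3 (chromosome 7, 112116017 to 112159057, minus strand), a secreted protein of the Dickkopf family, had 344, 310.3 and 218 in libraries labelled knockout, against 106, 109.8 and 56.1 in controls. Labelled knockout 3 and control 3 were the low library of their groups, and the log2 fold change was 1.66 ± 0.33 (adjusted p = 0.713, limma). Notch3 (chromosome 17, 32120820 to 32166852, minus strand), a Notch receptor best known from mural cells of vessels, had 626, 315 and 638 in libraries labelled knockout, against 145, 201 and 185 in controls. The log2 fold change was 1.49 ± 0.30 (adjusted p = 0.713, limma). Rgs5, another gene of mural cells, overlapped, with 213, 476 and 1069 in libraries labelled knockout and 289, 199 and 449 in controls. Of 15 mural and fibroblast markers tested, 0 were higher and 1 lower without overlap, against 5.62% and 5.46% of all genes. The lower one was Lum, with 1.29, 19.3 and 0 in libraries labelled knockout and 288, 28.5 and 25.9 in controls. The part of mural cells in the Notch3 value was not tested.

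Slc39a8, a zinc and manganese importer, had 232, 272 and 224 in libraries labelled knockout and 32.1, 99.6 and 79.8 in controls. Pgm5, a relative of phosphoglucomutase found at cell adhesions, had 269.6, 283 and 247 in libraries labelled knockout and 95.3, 73.2 and 132 in controls. Both had their 3 labelled knockout values within a narrow band, and control 1 was the low point of Slc39a8. Leaving out any 1 library kept the log2 fold change of Slc39a8 between 1.39 and 2.14 and that of Pgm5 between 1.21 and 1.61.

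**Figure D2:**
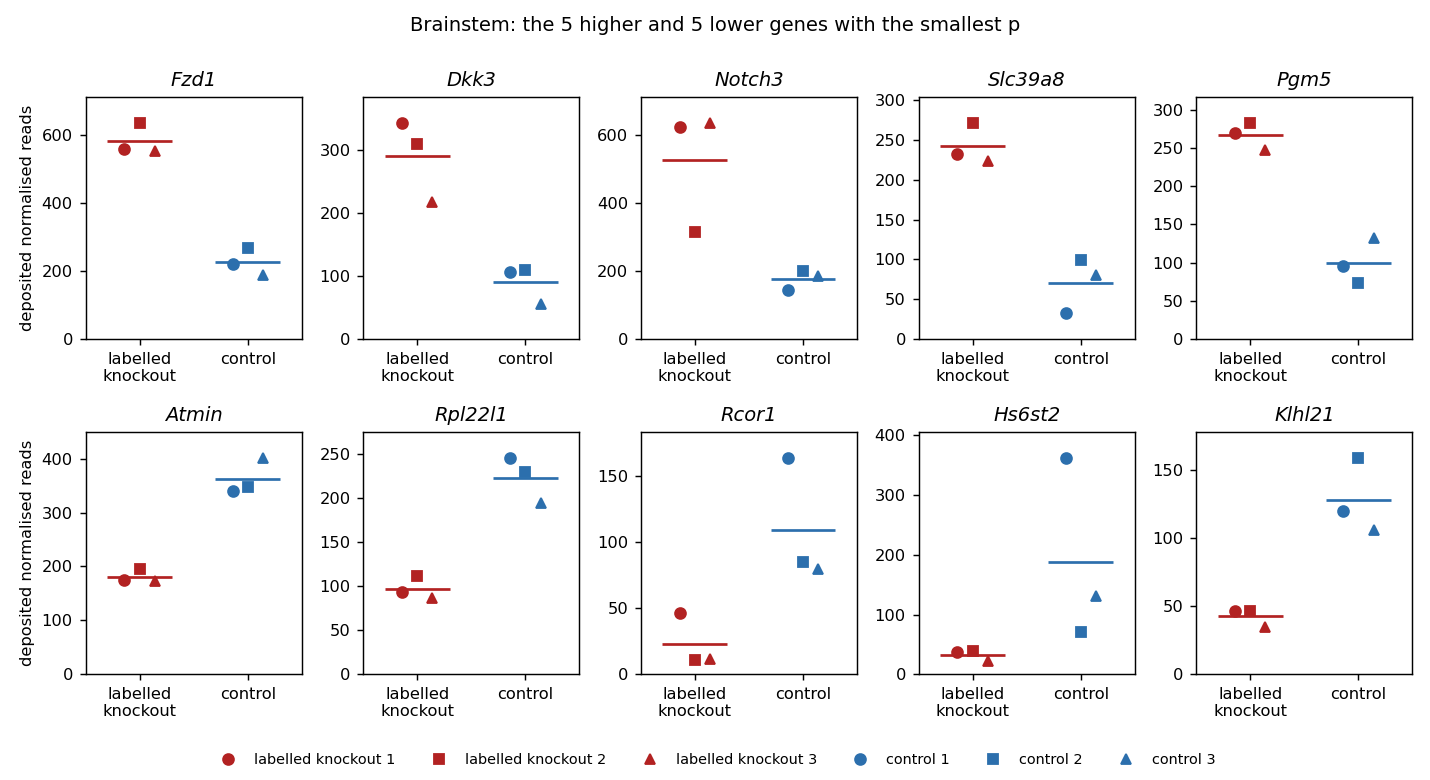
Normalised reads (y axis, from 0) in each brainstem library for the 5 higher and 5 lower genes with the smallest p, labelled knockout on the left and control on the right. Points are libraries, marked by number, and lines are group means. The groups do not overlap in any of the 10 genes, and none of them passes after adjustment.

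The sequence around the start of transcription is shown for 3 of these genes and for Gfap, since nuclear factor I dimers are known to bind pairs of the element TTGGC and its complement GCCAA. The windows run from 250 bases before the start to 50 after it, read 5′ to 3′ on the strand of the gene, from RefSeq on GRCm38.p6. They lie at chr5:4758167-4758466 for Fzd1, chr17:32166841-32167140 for Notch3, chr19:24861793-24862092 for Pgm5 and chr11:102897151-102897450 for Gfap, all on the minus strand. Capitals mark the element on either strand.
Fzd1: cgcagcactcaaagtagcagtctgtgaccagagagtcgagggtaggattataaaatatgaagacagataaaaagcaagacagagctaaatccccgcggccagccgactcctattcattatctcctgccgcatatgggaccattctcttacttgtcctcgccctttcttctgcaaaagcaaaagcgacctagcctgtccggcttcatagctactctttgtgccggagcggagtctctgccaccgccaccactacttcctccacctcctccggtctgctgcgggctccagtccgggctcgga
Notch3: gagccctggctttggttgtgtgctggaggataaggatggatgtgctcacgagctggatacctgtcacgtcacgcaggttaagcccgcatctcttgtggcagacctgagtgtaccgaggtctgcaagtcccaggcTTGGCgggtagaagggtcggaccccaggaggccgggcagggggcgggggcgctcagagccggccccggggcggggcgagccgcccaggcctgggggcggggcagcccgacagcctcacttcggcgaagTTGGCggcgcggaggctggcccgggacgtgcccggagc
Pgm5: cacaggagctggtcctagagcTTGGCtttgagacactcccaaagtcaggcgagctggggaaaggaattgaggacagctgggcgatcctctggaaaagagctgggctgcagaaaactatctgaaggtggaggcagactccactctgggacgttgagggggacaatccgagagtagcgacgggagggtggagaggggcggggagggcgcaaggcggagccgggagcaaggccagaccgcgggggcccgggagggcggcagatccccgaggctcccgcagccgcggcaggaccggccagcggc
Gfap: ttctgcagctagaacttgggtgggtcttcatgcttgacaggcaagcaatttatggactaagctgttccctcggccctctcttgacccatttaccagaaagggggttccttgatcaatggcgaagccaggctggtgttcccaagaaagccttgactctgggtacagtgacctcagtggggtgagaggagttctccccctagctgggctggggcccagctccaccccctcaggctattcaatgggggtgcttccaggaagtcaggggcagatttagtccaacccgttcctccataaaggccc
The Notch3 window held 2 elements and the Pgm5 window 1, and these letters were not in the Fzd1 and Gfap windows. Of all 32851 windows in the table, 46.7% held an element, so that a match is common. Among named genes 18 were looked up and 13 had a window, and 5 of the 13 held an element, which were Notch3, Pgm5 and the lower genes Rpl22l1, Rcor1 and Hs6st2. Both elements in palindrome with 5 bases between them occurred in 12 windows (0.0365%), none of them of these 13 genes.

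The 5 lower genes with the smallest p were Atmin, Rpl22l1, Rcor1, Hs6st2 and Klhl21, and none passed. Atmin, a transcription factor that also acts with the kinase ATM, had 175, 196 and 172 in libraries labelled knockout, against 339, 348 and 401 in controls, with a log2 fold change of -0.98 ± 0.24. Rpl22l1, a paralog of a ribosomal protein, had 92.9, 111 and 86.2 in libraries labelled knockout, against 245, 229.8 and 194 in controls. Both genes had a tight set of values in either group. Rcor1, the CoREST corepressor, had 46.4, 11.2 and 11.5 in libraries labelled knockout, against 164, 85.4 and 79.8 in controls, where the value of labelled knockout 3 was 2 reads. Hs6st2, a heparan sulphate sulphotransferase, had 37.4, 38.6 and 23 in libraries labelled knockout, against 362, 71.2 and 132 in controls. Control 1 was the high library for Hs6st2, and the log2 fold change was −1.45 without it and -2.07 with it. Klhl21, an adaptor of a ubiquitin ligase, had 46.4, 46.6 and 34.5 in libraries labelled knockout, against 119.9, 159 and 106 in controls.

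The 8 genes called with weights by region included 6 not described above. Shisa9, an auxiliary protein of AMPA receptors, had 2591, 2204 and 1517 in libraries labelled knockout and 594, 1183 and 869 in controls, a 2.39-fold ratio of means. Mfap3l had 3048, 2418 and 3119.9 in libraries labelled knockout and 865, 1829.9 and 1082 in controls, and 9330159F19Rik had 317, 358 and 333 in libraries labelled knockout and 165, 167 and 123 in controls. In these 3 genes the highest control did not reach the lowest library labelled knockout. Chrdl1, a secreted BMP antagonist that astrocytes use to act on synapses, was low in all 6, at 46.4, 27.3 and 23 in libraries labelled knockout and 5.35, 4.07 and 6.47 in controls. Fam84a had 58, 43.4 and 46 in libraries labelled knockout and 8.56, 6.1 and 12.9 in controls, and Tspan18, which was too low for the 6-library test, had 12.9, 48.2 and 40.2 in libraries labelled knockout and 0, 4.07 and 4.31 in controls. The values of these 3 rest on at most 8 reads in each control library, and no fold is given for them.

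Genes that define astrocytes were mostly higher in the libraries labelled knockout, and the size rested on 2 control libraries. Of 32 core genes, 28 had a log2 fold change above 0, and the median was 0.41, against 0.00 over all genes tested. In 2 of the 32 the groups did not overlap, against the 5.62% of all genes given above. Their summed level was 586166, 478935 and 488574 in libraries labelled knockout and 244108, 603499 and 370524 in controls, so control 1 was the lowest and control 2 the highest of the 6. Without control 1 the median was 0.10 and without control 2 it was 0.70, and without labelled knockout 3 it was 0.41. Control 1 was also the library with the most reads of choroid plexus markers, described below, and the part of that in the astrocyte values was not tested.

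Control 1 was the lowest library for each of the 6 astrocyte genes given next. Slc1a2, the main glutamate transporter of astrocytes, had 181968, 145493 and 143788 in libraries labelled knockout and 62889, 212036 and 116093 in controls, so that the controls spanned the whole range and the log2 fold change was −0.01 without control 1. Slc1a3, the other glutamate transporter, had 11572, 6805 and 6355 in libraries labelled knockout and 1989, 6409 and 5268 in controls, with 1 control above 1 library labelled knockout. For Aqp4, given above, the groups did not overlap, with a log2 fold change of 0.94 ± 0.33 and an unadjusted p of 0.0141. Gja1, the gap junction protein connexin 43, had 4640.3, 3448 and 5114 in libraries labelled knockout and 2319, 3999 and 2987 in controls, and Aldoc, a glycolytic enzyme of astrocytes, had 36136, 26446 and 31021 in libraries labelled knockout and 15196, 33464 and 23692 in controls. Sox9, a transcription factor of the glial lineage, had overlapping groups, with 1768, 1437 and 1408 in libraries labelled knockout and 1335, 1850.2 and 1464 in controls (log2 fold change -0.01 ± 0.22).

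Lists of transcription factors and hindbrain patterning genes had members higher without overlap, to be read against 5.62% of all genes higher and 5.46% lower. Of 31 astrocyte transcription factors tested, 5 were higher without overlap and 0 lower, and the median was 0.33, or 0.16 without control 1 and 0.46 without control 2. Id4, an inhibitor of bHLH factors, had 388, 291 and 328 in libraries labelled knockout and 181, 244 and 201 in controls, and Rorb, a nuclear receptor, had 3763, 3775 and 4212 in libraries labelled knockout and 1454, 3656 and 2189 in controls. Of 38 hindbrain patterning genes 15 could be tested, with 3 higher without overlap and 0 lower. Of the 15, 10 had a log2 fold change above 0 and 5 below, and the median of 0.67 stayed between 0.60 and 0.74 without each library in turn. Hoxa2 had 91.6, 78.8 and 115 in libraries labelled knockout and 40.7, 44.7 and 47.4 in controls, a 2.15-fold ratio of means. Meis2, a partner of Hox proteins, had 397, 719 and 402 in libraries labelled knockout and 290.1, 285 and 295 in controls, where the 3 controls were nearly level and labelled knockout 2 was the high one. The unadjusted limma p was 0.0211 for Hoxa2 and 0.0147 for Meis2. Of 17 forebrain patterning genes 4 could be tested, with 1 log2 fold change above 0, 3 below, and a median of −0.545. The groups overlapped in each of these 4.

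In 4 signalling lists, 0 to 5 members were higher without overlap and 0 lower, to be read against 5.62% of all genes higher and 5.46% lower. In the Wnt list 5 of 24 genes were higher without overlap and 0 lower, with a median of 0.19, or 0.08 without labelled knockout 3 and 0.37 without control 2. The Notch list had 2 of 19 higher and 0 lower, Notch3 and Maml2, a coactivator of Notch targets, with 718, 677 and 661 in libraries labelled knockout and 359.7, 610 and 438 in controls. In the list of BMP and TGF-beta genes 2 of 23 were higher and 0 lower, with a median of 0.21, or 0.01 without control 2 and 0.11 without labelled knockout 3. FGF and angiogenic factors had 0 of 20 separated, and their 2 members with the smallest p overlapped. Vegfa, the vascular growth factor, had 619, 439 and 776 in libraries labelled knockout and 446, 405 and 364 in controls, and Angpt1, a ligand of the endothelial receptor Tie2, had 481, 397 and 368 in libraries labelled knockout and 119.9, 423 and 246 in controls.

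Genes by which astrocytes act on synapses gave 6 of 32 higher without overlap and 1 lower, against 5.62% of all genes higher and 5.46% lower. The median was 0.39, or 0.15 without control 1 and 0.68 without control 2. Ptn, the growth factor pleiotrophin, had 2763, 3041 and 2752 in libraries labelled knockout and 1339, 1997 and 1591 in controls, and its log2 fold change of 0.81 ± 0.23 stayed between 0.68 and 0.96 without any 1 library. Robo2, a receptor for Slit ligands, had 455, 539 and 523 in libraries labelled knockout and 227, 417 and 250.1 in controls. In both genes control 2 was the highest control and still lay below the libraries labelled knockout.

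Lists of channels, receptors and transmitter handling had 1 to 5 members higher without overlap, against 5.62% of all genes, and 0 to 2 lower, against 5.46%. Of 22 genes of potassium, water and ion transport 5 were higher without overlap and 1 lower, with a median of 0.42, or 0.22 without control 1 and 0.66 without control 2. Kcnk2, the potassium channel TREK-1, had 162, 130.2 and 236 in libraries labelled knockout and 38.5, 61 and 88.4 in controls, a 2.81-fold ratio of means. Kcnn2, a calcium-activated potassium channel, had 824, 728 and 667 in libraries labelled knockout and 197, 482 and 446 in controls. Among 26 neurotransmitter receptors 3 were higher without overlap and 0 lower, with a median of 0.46 that was 0.09 without control 1 and 0.73 without control 2. Grin2c, an NMDA receptor subunit found in astrocytes, had 424, 444 and 459.7 in libraries labelled knockout and 227, 262 and 302 in controls, so that each group lay in a narrow band. Gabrb1, a GABA-A receptor subunit, had 641, 502 and 575 in libraries labelled knockout and 283, 484 and 369 in controls. The list of glutamate, GABA and glycine handling had 1 of 26 higher and 2 lower without overlap, and Got2, the mitochondrial aspartate aminotransferase, had 255, 429 and 178 in libraries labelled knockout and 775, 309 and 543 in controls.

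Lipid genes, metallothioneins and hormone genes included members with separated groups in 1 or both directions, to be read against 5.62% of all genes higher and 5.46% lower. Of 28 lipid and fatty acid genes 3 were higher without overlap and 0 lower, and the median was 0.24, or 0.05 without control 1 and 0.52 without control 2. Elovl5, a fatty acid elongase, had 2176, 1890.5 and 2350 in libraries labelled knockout and 1166, 1248 and 1287 in controls, and its log2 fold change of 0.79 stayed between 0.72 and 0.87 without any 1 library. Fabp5, a fatty acid carrier, had 619, 633 and 873 in libraries labelled knockout and 267, 510.3 and 373 in controls. Of 24 cholesterol synthesis genes 5 were higher and 0 lower, with a median of 0.35, or 0.14 without control 1 and 0.11 without labelled knockout 1. Stard4, a sterol carrier, had 87.7, 99.7 and 155 in libraries labelled knockout and 39.6, 44.7 and 56.1 in controls.

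The metallothioneins, small zinc- and copper-binding proteins, were higher in every library labelled knockout than in every control. Mt2 had 2735, 3086 and 2476 in libraries labelled knockout and 1518, 2017 and 1141 in controls, and Mt1 had 2645, 2308 and 2603 in libraries labelled knockout and 1496, 1948 and 1637 in controls. Mt3, a form enriched in brain, had 133, 220.2 and 178 in libraries labelled knockout and 91, 50.8 and 125 in controls. These 3 were the higher genes of a list of 24 that had 1 lower. The unadjusted p of Mt2 was 0.00379 and that of Mt3 0.0171.

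Hormone genes went both ways, with 3 of 18 higher and 2 lower without overlap, against the same shares of all genes. Dio2, the deiodinase by which astrocytes activate thyroid hormone, had 1883, 1969 and 2109 in libraries labelled knockout and 859.6, 1655 and 996 in controls.

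Markers of choroid plexus varied widely between libraries within both groups. Their summed level was 103920.2, 143570 and 8670.4 normalised reads in libraries labelled knockout and 384754, 80077 and 191484 in controls (exact two-sided permutation p = 0.3, smallest possible 0.1). Labelled knockout 3 was the lowest of the 6 and control 1 the highest. All 18 markers had a log2 fold change below 0, with a median of −1.83, which was −0.57 without labelled knockout 3 and −1.29 to −2.53 without each of the others. Ttr, the transthyretin that choroid plexus secretes, had 60215, 87460.2 and 3683 in libraries labelled knockout and 225951, 47066 and 110909 in controls, with a log2 fold change of -1.97 ± 1.44 that was −0.54 without labelled knockout 3. Folr1, a folate receptor, had 117, 122 and 0 in libraries labelled knockout and 496, 77.3 and 259 in controls, and Aqp1 and Kcne2 were also at 0 in labelled knockout 3. Bulk libraries cannot tell fewer cells of a type from less RNA per cell. Of the 18 markers 1 was lower without overlap, against 5.46% of all genes. This was Prlr, with 561, 564 and 23 in libraries labelled knockout and 6257, 1092 and 1292 in controls.

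Ependymal markers, of the ciliated cells that line the ventricles, went with those of choroid plexus. Their sum was 533, 889 and 350.5 in libraries labelled knockout and 2123, 510.3 and 1339 in controls (exact permutation p = 0.3). Of 13 tested, 12 had a log2 fold change below 0 and 0 were free of overlap, with a median of −1.06 that was −0.67 without labelled knockout 3 and −1.69 without control 2, and Ccdc153 was at 0 in 4 of the 6 libraries. Foxj1, the transcription factor of ciliated cells, had 103, 124 and 51.7 in libraries labelled knockout and 325, 85.4 and 265 in controls.

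Markers of other cell types were read in all 6 libraries, and the groups overlapped in each sum. Oligodendrocyte markers, such as Mbp of myelin, summed to 54503, 98748 and 120006 in libraries labelled knockout and 58946, 69384 and 100209 in controls. Microglia markers summed to 2894, 3114 and 6596 in libraries labelled knockout and 3862, 3214 and 5214 in controls, and endothelial markers to 3387, 4485 and 9946 in libraries labelled knockout and 4241, 4617 and 5738 in controls. Labelled knockout 3 had the highest sum of these 3 lists. Mural and fibroblast markers summed to 2755, 3969 and 3924 in libraries labelled knockout and 10516, 2877 and 5095 in controls, and control 1 was the highest of the 6. In this list Igf2, a growth factor that choroid plexus also makes, had 1374, 1530.4 and 471 in libraries labelled knockout and 6206, 1187 and 2749 in controls. Dcn, a matrix protein of fibroblasts, had 102, 225 and 121 in libraries labelled knockout and 1698, 187 and 123 in controls, again highest in control 1. Neuron markers summed to 6939.9, 8851 and 7188 in libraries labelled knockout and 7094, 7124 and 8047 in controls.

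**Figure D3:**
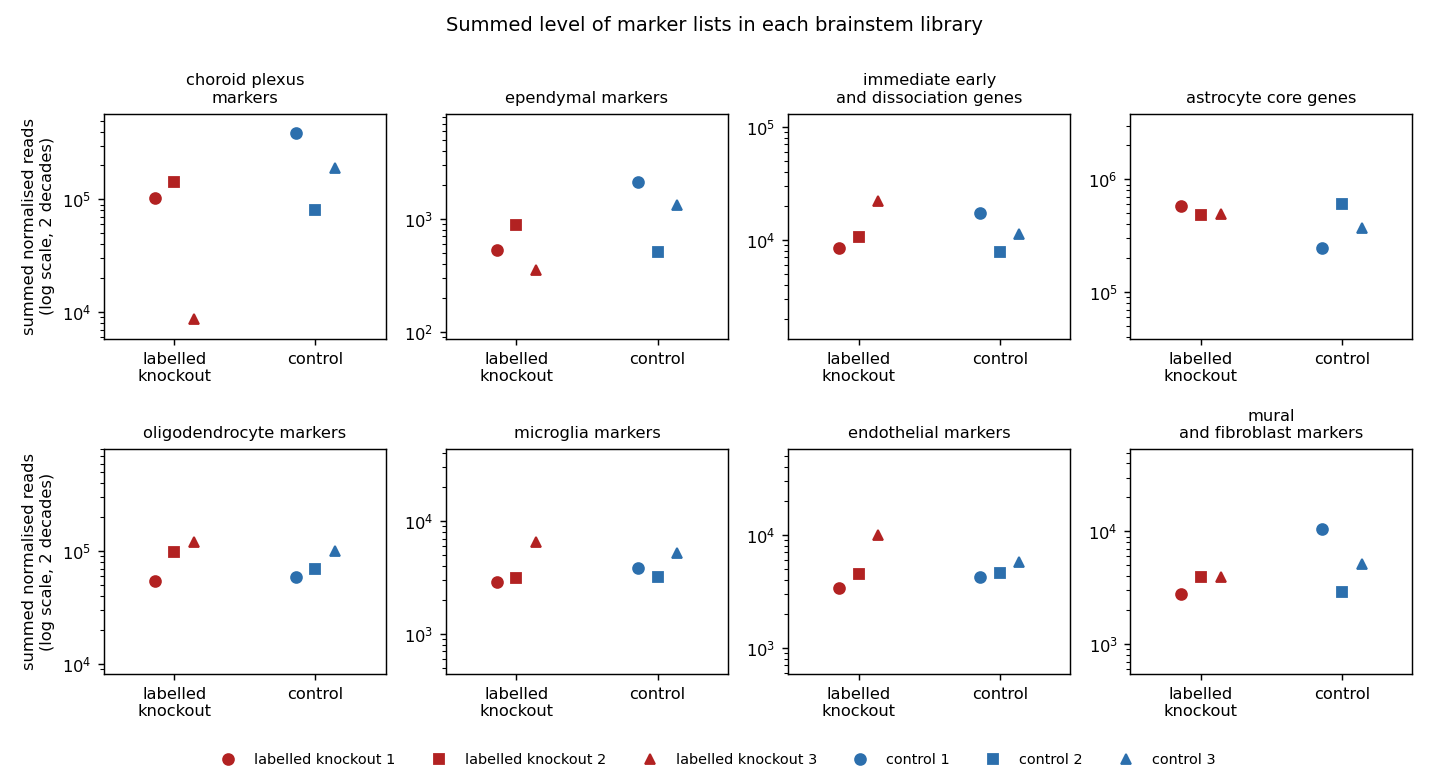
Summed normalised reads of 8 gene lists (y axis, log scale spanning 2 decades in each panel) in each brainstem library, labelled knockout on the left and control on the right, 3 libraries each. Choroid plexus markers spread from 8670 in labelled knockout 3 to 384754 in control 1, and the groups overlap in all 8 panels.

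The genes with the largest spread within groups were of 3 kinds. Choroid plexus and related genes, Kcne2, Htr2c, Folr1 and Aqp1, had their lowest value in labelled knockout 3. Genes induced within minutes by activity or by handling of cells, Atf3, Fosb and Ptgs2, had their highest value there. Fosb had 117, 27.3 and 787 in libraries labelled knockout and 352, 24.4 and 224 in controls, and Atf3 had 32.2, 24.1 and 769.9 in libraries labelled knockout and 159.5, 14.2 and 188 in controls. Summed over 29 tested immediate early and dissociation genes and their untested fellows, the level was 8494, 10648 and 22213 in libraries labelled knockout and 17279, 7793 and 11325 in controls, and the median log2 fold change of 0.06 was −0.76 without labelled knockout 3, −0.56 without control 2, and 0.21 to 0.55 without each of the others. The last of the 8 was Xist, the RNA of the inactive X chromosome, with 1009.8, 317 and 2764 in libraries labelled knockout and 1534, 709.6 and 12.9 in controls. The Y-linked gene Ddx3y, looked at after the Xist values were seen, was at 0 in 5 libraries and had 778 normalised reads in control 3, so this control differed from the other 5 in sex-linked reads.

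A test of the difference between regions asked which brainstem values stood apart from the effect in the rest of the brain. It took the brainstem effect minus the mean effect of olfactory bulb, hippocampus and cortex, over all 24 libraries, and called 21 of 12673 genes (0.166%), 12 with a positive and 9 with a negative difference (limma, adjusted p 0.0122 to 0.0493). The estimate of spread was shared with the other regions and is smaller than that of brainstem. With 1 weight per region the count was 0. It was also 0 without control 1, 5 without control 3, 13 without labelled knockout 3, 46 without labelled knockout 1 and 244 without control 2. The values below are therefore given with each library.

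Gfap was the gene with the smallest p. In brainstem it had 1631, 3125 and 1471 normalised reads in libraries labelled knockout and 1181, 1805 and 1462 in controls, so the groups overlapped, and the log2 fold change was 0.42 ± 0.29 within the 6 libraries (adjusted p = 0.808, limma). In the other regions its log2 fold change was -1.16 in olfactory bulb, -1.70 in hippocampus and -0.91 in cortex. The difference was 1.68 ± 0.27 (SE, adjusted p = 0.0122), and it was called in 12 of 14 alternatives, all but those without control 1 and with 1 weight per region. Gfap (chromosome 11, 102887336 to 102900912, minus strand) is a known target of NFIA in developing astrocytes, and its promoter window is printed above.

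Hsd11b1 and Tprkb had overlapping groups in brainstem and negative log2 fold changes in the other regions. Hsd11b1, an enzyme that regenerates active glucocorticoid, had 794, 749 and 908 in brainstem libraries labelled knockout and 611, 866 and 653 in controls, with log2 fold changes of 0.21 in brainstem and -1.07, -1.35 and -2.10 in olfactory bulb, hippocampus and cortex. Tprkb had 1381, 1066 and 965 in brainstem libraries labelled knockout and 714, 1254 and 908 in controls, and a log2 fold change of 0.27 in brainstem, against -1.62, -0.92 and -1.13 in the other 3. Kcng4, a potassium channel subunit that modifies the gating of its partners, had a negative log2 fold change in all 4 regions, the smallest in size in brainstem, where the groups did not overlap. It had 202, 132 and 184 there in libraries labelled knockout and 239.8, 207 and 259 in controls, a log2 fold change of -0.45, against -2.15, -2.64 and -3.22 in the other 3.

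Frrs1l and Dio2 had opposite signs in brainstem and elsewhere. Frrs1l (chromosome 4, 56957173 to 56990391, minus strand), a protein of AMPA receptor assembly, had 1260, 641 and 678 in brainstem libraries labelled knockout and 323, 431 and 487 in controls, without overlap. Its log2 fold change was 1.00 in brainstem and -1.21, -0.93 and -0.95 in the other 3. Dio2, given above, had a log2 fold change of 0.82 in brainstem and -0.84, -0.24 and -0.45 in the other 3. Peg10 and Rasgef1a went the other way. Peg10, an imprinted gene of retrotransposon origin, had 155, 180.1 and 149 in brainstem libraries labelled knockout and 606, 234 and 237 in controls, where control 1 was the high one, and its log2 fold change was -0.98 there, against 0.59, 0.81 and 0.40. Rasgef1a, a Ras activator, had 5.16, 3.22 and 5.75 in brainstem libraries labelled knockout, which is 1 to 4 reads each, and 46, 16.3 and 43.1 in controls.

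**Figure D4:**
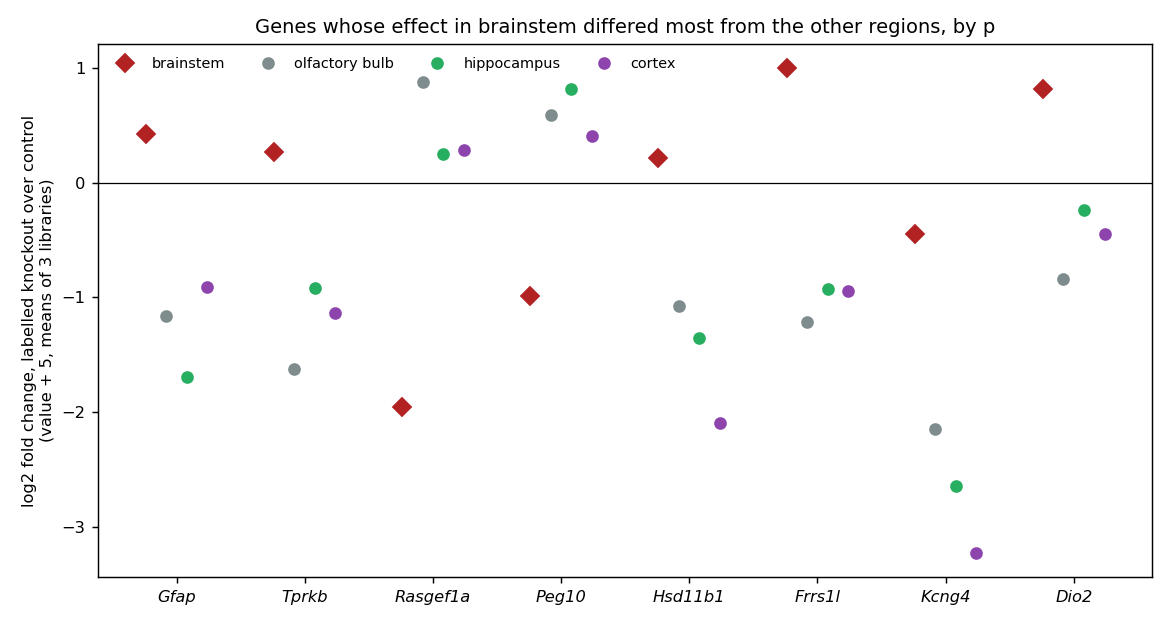
Log2 fold change of labelled knockout over control (y axis, value + 5, means of 3 libraries a group) in brainstem and in olfactory bulb, hippocampus and cortex, for the 8 genes with the smallest p of the difference between brainstem and the other 3 regions. For Gfap the brainstem point is at 0.42 and the other regions are at −0.91 to −1.70.

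A second look took the genes that differed in the other 3 regions and read their values in brainstem, which had no part in their choice. It was made after the brainstem values were seen. The average effect of olfactory bulb, hippocampus and cortex, over their 18 libraries, was past an adjusted p of 0.05 for 779 of 12145 genes (6.41%, limma), 377 higher and 402 lower in libraries labelled knockout. Of these, 739 were tested in brainstem. The same mice may have given libraries to several regions, since no label ties libraries to animals.

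Of 354 genes higher in the other regions, 302 (85.3%) had a log2 fold change above 0 in brainstem, against 50.3% of all genes tested. The 3 libraries labelled knockout lay above the 3 controls in 78 (22.0%), against 5.62% of all genes, and below them in 3. Their median log2 fold change was 0.40 in brainstem, where it was 0.22 without control 1 and 0.56 without control 2, and 0.46 in the other regions. Leaving out each brainstem library in turn put 273 to 312 genes above 0. The separated share, to be read against the leave-out shares of all genes above, was then 25.7%, 35.0% and 29.9% without labelled knockout 1, 2 and 3, and 22.9%, 55.1% and 28.0% without control 1, 2 and 3. Fam184a, Nfia, Fam84a, Shisa9, Robo2, Ifit3b, Chrdl1 and Notch3 were the 8 with the smallest p in the other regions among the 78. Ifit3b, an interferon-induced gene, had 244, 201 and 189.6 in brainstem libraries labelled knockout and 43.9, 134 and 71.2 in controls, and its neighbour Ifit3, a close paralog with which it may share reads, had 206, 196 and 207 in libraries labelled knockout and 41.8, 146 and 66.8 in controls. Fam184a had 503, 653 and 586 in brainstem libraries labelled knockout and 343, 325 and 276 in controls. The 354 genes included some of astrocytes, such as Slc1a3, Aldh1l1, Rorb and Grin2c. Each of these had its lowest brainstem value in control 1, and the part of such genes in the counts was not tested.

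Of 385 genes lower in the other regions, 281 (73.0%) had a log2 fold change below 0 in brainstem, against 49.7% of all genes. The libraries labelled knockout lay below the controls in 35 (9.09%), against 5.46% of all genes, and above them in 10. Their median log2 fold change was −0.40 in brainstem, where it was −0.29 without labelled knockout 3 and −0.48 without control 2, and −0.80 in the other regions. Without each brainstem library in turn 273 to 292 were below 0. The separated share was then 15.8%, 28.1% and 12.2% without labelled knockout 1, 2 and 3, and 12.5%, 37.1% and 11.7% without control 1, 2 and 3. Genes separated in the opposite direction numbered 14 to 52, the last without control 2. The 385 genes included some of choroid plexus and ependymal cells, such as Folr1, Kcne2, Prlr and Foxj1. Each of these had its lowest brainstem value in labelled knockout 3, and the part of such genes in the counts was not tested.

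Among the 35 lower genes, Maob, Kcng4, Prelp, Myrip, Carhsp1, Kat2b, Hs6st2 and Idh2 had the smallest p elsewhere. Maob, the monoamine oxidase of astrocytes, had 534, 569 and 402 in brainstem libraries labelled knockout and 756, 602 and 720.2 in controls, a log2 fold change of -0.47 ± 0.23, where the other regions averaged −1.19. Prelp, a small matrix proteoglycan, had 725, 563 and 350.5 in brainstem libraries labelled knockout and 1584, 732 and 977 in controls, with -0.99 ± 0.32 in brainstem and −0.92 elsewhere. Myrip had 239.9, 354 and 195 in brainstem libraries labelled knockout and 518, 462 and 519.7 in controls, and Idh2, a mitochondrial isocitrate dehydrogenase, had 162, 101 and 167 in libraries labelled knockout and 284, 195 and 242 in controls. Cryab and Clu, a small heat shock protein and a secreted chaperone that were lower elsewhere, overlapped in brainstem. Cryab had 902, 1648 and 1413 in brainstem libraries labelled knockout and 1441, 1283 and 1542 in controls, and Clu had 7089, 7157 and 5326 in libraries labelled knockout and 5988, 10867 and 6870.1 in controls.

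**Figure D5:**
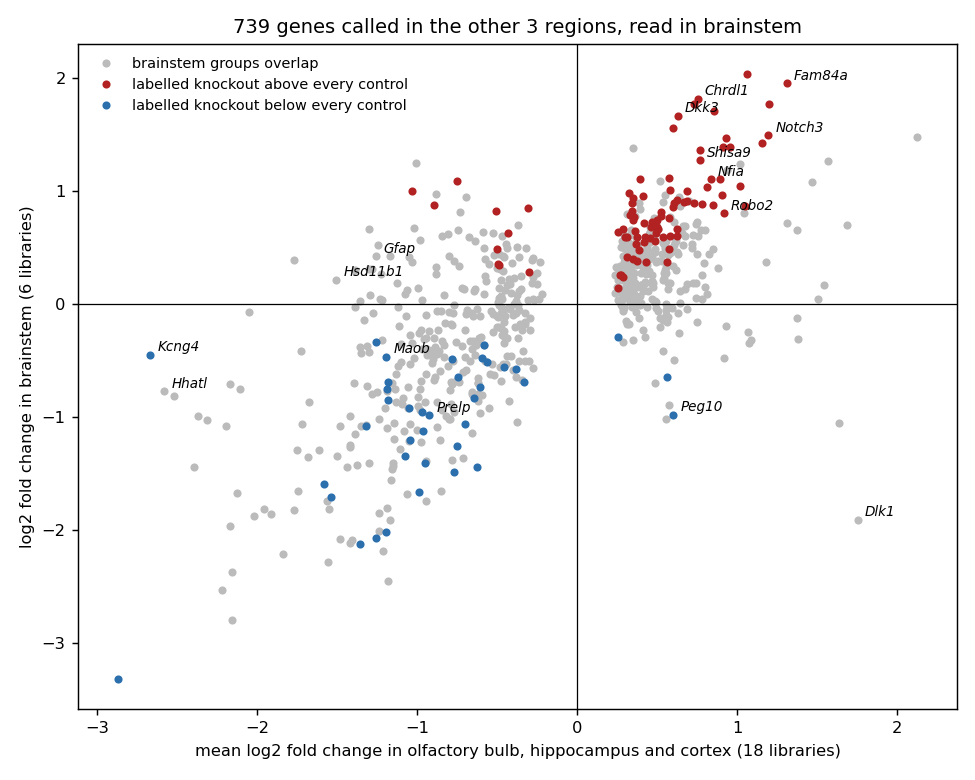
Log2 fold change of labelled knockout over control in brainstem (y axis, 6 libraries) against the mean of olfactory bulb, hippocampus and cortex (x axis, 18 libraries) for the 739 genes called in those 3 regions and tested in brainstem. Red and blue points are genes whose brainstem libraries labelled knockout all lay above or all below the controls. Of the genes at the right, 302 of 354 are above 0, and of those at the left, 281 of 385 are below 0.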

How the data were processed

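The labels' protocols name FACS sorting, RNeasy Micro extraction and NuGEN Trio RNA-Seq libraries from 5 ng of total RNA. Per the submitters' processing notes, the tools were FastQC, STAR 2.5.0a, and DESeq2 1.20.0, with mm10, and no role is given for them. The counting tool, its strand setting and the annotation are not given in the sources used here. The authors deposited 1 table per library of normalised signal for 24421 gene names, 27 of them turned into dates and 2 repeated. Each library had 1 factor that turned its values back into whole reads, within a tolerance of 0.01 read, for 100% of values.

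The 3 libraries labelled knockout and 3 controls of brainstem were compared on log2(value + 5) with limma 3.58.1 (R 4.3.3, trend and robust moderation, two-sided), for 11330 genes with at least 20 normalised reads in at least 3 libraries and Benjamini-Hochberg adjustment at 0.05. The constant of 5 reduces fold changes of low genes. It was added to normalised reads, so equal values are reduced equally in each library, and 1 read exceeds it in labelled knockout 3 alone. The difference from the other regions used 24 libraries and 12673 genes, and only effects within a region were set against each other. The fit was tested on simulated data. Counts with edgeR 4.0.16 and DESeq2 1.42.0, other scalings and filters, weights, thinned reads, replicate numbers as a block and each library left out were the alternatives, and fits of 24 libraries with weights were added after seeing the data. Coordinates come from GENCODE vM21.

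The comparison, the 38 gene lists and the rule for named genes were chosen with earlier results of these data known. The text names 12 genes of the nuclear factor I family or of astrocytes, the 5 with the smallest p in each direction where none passed, 2 per list by p, 8 by p for the difference between regions and 8 by spread, with unnamed gene models skipped. Genes called by alternatives, genes of the other regions' set, Ddx3y and single markers were named after their values were seen. Genes withheld from the text are not reported here.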

Additional observations from a re-analysis of the deposited data

Results flagged for a closer look

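The brainstem effect differed from the mean effect of olfactory bulb, hippocampus and cortex in 21 genes, by a test of that difference in limma over 24 libraries (adjusted p 0.0122 to 0.0493). Each value that follows is the brainstem log2 fold change minus the mean of the other 3.

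The difference was positive in 12 genes. It was 1.68 for Gfap, 1.49 for Tprkb, 1.72 for Hsd11b1, 2.02 for Frrs1l, 2.22 for Kcng4 and 1.33 for Dio2, whose libraries are given in the report. It was 1.06 for 9330159F19Rik, higher in every brainstem library labelled knockout than in every control and near 0 elsewhere. Igfbp5, a binding protein of insulin-like growth factors, had 1.46, and Dctd, a deaminase of deoxycytidylate, had 1.84. Atg4c, a protease of autophagy, had 1.33. Scg3, a granin of secretory granules, had 1.07, and the gene model E030003E18Rik had 2.16.

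The difference was negative in 9 genes. It was −2.43 for Rasgef1a, −1.58 for Peg10 and −2.46 for Rcor1. Dlk1, an imprinted gene of the Delta family, had −3.66, with log2 fold changes of −1.91 in brainstem and 1.24 to 2.11 in the other regions. Chst3, a sulphotransferase of chondroitin chains, had −2.70, and Med16, a subunit of Mediator, had −1.42. Tex15 had −2.89, which rests on higher values elsewhere, as its brainstem libraries held 0, 0 and 11.5 normalised reads in the labelled knockouts and 8.56, 2.03 and 0 in controls. The names 5930403L14Rik and AK010878 had −1.47 and −2.39. Chst3 had 1.29, 0 and 0 in brainstem libraries labelled knockout and 11.8, 16.3 and 17.25 in controls. Dlk1 had 27.1, 75.6 and 0 in libraries labelled knockout and 83.5, 113.9 and 60.4 in controls, so its groups overlapped. AK010878 was also at 0 in labelled knockout 3, where a count of 0 allows up to 17.2 normalised reads.

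The 21 calls rest on a spread shared with regions whose replicates lie closer together. With 1 estimated weight per region 0 genes were called, and without control 1 also 0.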

How the results depend on the processing

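For brainstem, 0 genes were called under other added constants, filters and scalings, edgeR, voom, thinned reads, no trend, the replicate block and each library left out. DESeq2 called 3, array weights 5, and fits of 24 libraries 98, or 8 with weights by region, 120 with weights by library, 32 in edgeR and 22 without labelled knockout 3. A count of 0 at this spread and depth does not show that genes were alike. The difference between regions had 21 calls, 12 in edgeR, 10 without a filter, 32 and 0 with weights by library and by region, and 0 to 244 without 1 brainstem library. The 8 genes named for it kept their sign in all 112 values and lost the call in 27. Same-numbered libraries deviated with correlations of −0.04, −0.13 and 0.11 across genes, and not every library correlated best with its own number. Values this weak, from deviations within groups of 3, cannot tell whether libraries were paired. With the replicate block 24 genes differed between regions.

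Of 2878 values for 116 named genes, 32 reversed a direction and 88 newly passed. The cause was not tested. With 1 library left out the log2 fold change ranged from −0.0069 to 0.87 for Slc1a2, −0.11 to 0.13 for Sox9, −0.12 to 3.09 for Xist, −1.36 to 1.00 for Atf3, −1.09 to 1.22 for Fosb, −0.043 to 0.86 for Mrc1, −0.016 to 1.10 for Cldn11, −0.33 to 0.11 for Cryab, −0.67 to 0.30 for Unc5c and −0.42 to 0.012 for Clu. With voom, voom with weights, array weights and weights by library in 24, Atf3 had −1.02, −0.82, −0.96 and −0.95, and Fosb −0.76, −0.37, −0.47 and −0.47. Sox9 had 0.0030, 0.11 and 0.10 with the last 3 and 0.070 thinned. Cldn11 had −0.045 with array weights and −0.029 with weights by library. In 24 libraries without labelled knockout 3, Sox9 had 0.054, Mrc1 −0.043, Atf3 −1.36 and Fosb −1.09.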

Other observations

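Lists of housekeeping genes had medians near 0, and their counts without overlap are to be read against 5.62% of all genes higher and 5.46% lower. Of 40 cytosolic ribosomal protein genes 1 was higher and 2 lower without overlap, with a median log2 fold change of 0.00 that stayed between −0.13 and 0.14 without each library in turn. Rplp1, a protein of the ribosomal stalk, had 420.4, 506 and 729.7 normalised reads in libraries labelled knockout and 786, 736 and 832 in controls. Of 32 nuclear genes of the respiratory chain 1 was higher and 2 lower, with a median of 0.00, and Ndufa1, of complex I, had 144, 182 and 115 in libraries labelled knockout and 284, 234 and 229 in controls. Glycolysis, glycogen and lactate genes had 1 of 24 higher and 1 lower. The lower one was Pdk4, a kinase that restrains pyruvate dehydrogenase, with 293, 307 and 218 in libraries labelled knockout and 378, 407 and 339 in controls.

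Genes of the reactive state of astrocytes did not go 1 way. Of 21 tested, 12 had a log2 fold change above 0, and the median of 0.24 ranged from −0.01 without control 3 to 0.55 without labelled knockout 1. Vim, the intermediate filament vimentin, had 399, 413 and 517 in libraries labelled knockout and 228, 179 and 470.1 in controls, and Serpina3n, a secreted protease inhibitor, had 65.8, 46.6 and 46 in libraries labelled knockout and 65.3, 126 and 92.7 in controls. Most interferon and MHC class I genes overlapped, with 2 of 20 higher and 1 lower, against 5.62% and 5.46% of all genes. The 2 higher were Ifit3b and Ifit3, close paralogs that may share reads. Of 21 cell cycle genes 5 could be tested, and Ccnd2, a cyclin of the first gap phase, had 213, 567 and 305 in libraries labelled knockout and 943, 359.9 and 526 in controls.

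Neuron markers had 10 of 19 log2 fold changes above 0, with a median of 0.00. Of the 19, 0 were higher and 1 lower without overlap, against 5.62% and 5.46% of all genes. The lower one was Gad2, an enzyme of GABA synthesis, with 103, 38.6 and 86.2 in libraries labelled knockout and 122, 291 and 129 in controls. Of 6 markers of Schwann cells and satellite glia that were tested, 2 were higher and 0 lower without overlap, against the same shares of all genes. Among the 2 was the cadherin Cdh19, with 432, 378 and 471 in libraries labelled knockout and 134, 244 and 222 in controls.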
